A study of Danio rerio with 6 samples.

Results

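The genes described here encode integrins, laminins and the other glycoproteins of basement membranes and interstitial matrix. They were chosen by gene symbol from the deposited table: integrin alpha and beta chains, laminin chains, fibronectin, nidogens, perlecan, agrin, dystroglycan, Fraser complex proteins, hemicentins, fibulins, fibrillins, tenascin, thrombospondins, vitronectins, versicans, matrilins, hyaluronan link proteins and hyaluronan synthases. The rule, which uses no measured value, found 94 gene identifiers with 93 symbols among 26190 gene identifiers, and 85 of the 94 passed the filter on low counts. The RNA came from zebrafish embryos of the line Tg(krt4:GFP) at the 4-somite stage, whose GFP is under the control of the promoter of a keratin gene, *krt4*, and marks the outermost cell layer, called the periderm or enveloping layer (EVL). Cells of dissociated, pooled embryos were separated by FACS into a GFP-positive population, labelled as periderm, and a GFP-negative population, which mixes all other cell types of the same embryos. Each population was sequenced in 3 libraries, from 3 separate incrosses, and both populations carry the transgene. The comparison asks which of these genes are higher or lower in GFP-positive than in GFP-negative cells.

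Integrins are receptors made of an alpha and a beta chain that hold cells to matrix proteins, and the chain pair sets what is bound: integrins with the alpha 6 chain bind laminin, those with alpha 5 bind fibronectin, and those with alpha 1, 2, 10 or 11 bind collagen. Laminins are trimers of an alpha, a beta and a gamma chain that polymerise into the first sheet of a basement membrane, which nidogens and perlecan then tie to a collagen network and which dystroglycan and integrins anchor to the cell. In vertebrate skin the basement membrane lies under the basal epidermis, whereas the periderm is an outer sheet that faces the environment and is joined to its neighbours mainly by cell junctions.

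The libraries held 40584467 to 49679602 estimated counts in GFP-positive cells and 40663430 to 46621839 in GFP-negative cells, so that 3 counts correspond to 0.0604 to 0.0739 CPM (counts scaled to the library total). Levels are given below as TPM, a share of the library's transcripts that takes transcript length into account. Fold changes are log2 values of GFP-positive over GFP-negative cells fitted to gene counts with edgeR's quasi-likelihood test, with their standard error (SE) and a p-value adjusted by the Benjamini-Hochberg method over 20944 genes. A gene is said to have risen or fallen where that p was below 0.05 and its mean TPM exceeded 1 in the population with the higher level. The labelled tissue was checked against markers: all 12 EVL markers rose, with a summed level of 5537 to 5774 TPM in GFP-positive libraries and 868 to 967 TPM in GFP-negative ones. These include *krt4*, whose promoter drives the GFP used for sorting, so its rise is no independent check. It measured 2384, 2315 and 2591 TPM in GFP-positive libraries and 545, 624 and 636 TPM in GFP-negative ones. Markers of other cell types also differed. Summed levels were 6176 to 6414 against 713 to 714 TPM for 4 hatching gland genes, 564 to 673 against 173 to 176 TPM for 6 notochord genes and 675 to 751 against 402 to 432 TPM for 6 basal epidermis genes, and 623 to 637 against 1118 to 1139 TPM for 10 neural genes, GFP-positive libraries first in each pair. All of the hatching gland and basal epidermis genes and 5 of the notochord genes rose, 8 of the neural genes fell, and no gene of these lists was at 0 in all libraries. Sums for paraxial mesoderm markers were 310 to 317 against 297 to 305 TPM, in the same order. Those for neural crest were 57.1 to 65.5 against 87.8 to 97.4 TPM, and for endoderm 72.7 to 76.1 against 59.8 to 65.4 TPM. Blood and endothelium gave 315 to 326 against 335 to 358 TPM, and yolk syncytial layer 63.0 to 68.8 against 53.4 to 58.5 TPM. The part of such cells in the values below was not tested, and in bulk samples fewer cells of a type and less RNA per cell cannot be told apart. GFP-positive replicate 3 stood apart from the other GFP-positive libraries: over all genes, the chi-square statistic per degree of freedom was 20.28 and 11.97 between it and replicates 1 and 2, and 5.273 between replicates 1 and 2.

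Of the 85 genes tested, 34 (40%) rose, 12 (14.1%) fell and 39 were not called. Over all genes tested 24.1% rose and 25.0% fell, 49.0% in either direction. Counts given below for single groups and lists of genes stand against these same shares. The median log2 fold change of the 85 genes was 0.37, against 0.02 over all genes. Of the 46 calls 14 were at least 2-fold, where 2592 of the 10270 calls over all genes were. TPM values of the 3 GFP-positive libraries all lay above those of the 3 GFP-negative libraries for 27 genes and all below them for 12, where the same order was found for 24.2% and 34.3% of all genes tested, and 46 genes overlapped. The balance of higher calls depended in part on GFP-positive replicate 3, which had the highest of the 3 GFP-positive TPM values for 62 of the 85 genes (72.9%) and for 54.7% of all genes tested. Without it 27 genes rose and 16 fell, where 24.3% and 25.5% of all genes did. The median log2 fold change of the group was then 0.26, against 0.02 over all genes. Each of the 46 called genes kept its sign in all 15 alternative fits, and 35 of them stayed called whichever of the 6 libraries was left out. Tested with limma on log2(TPM + 1), where 18.2% of all genes rose and 28.8% fell, 22 genes rose and 10 fell. On that scale the median of the group was 0.12, against -0.06 over all genes.

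**Figure D1:**
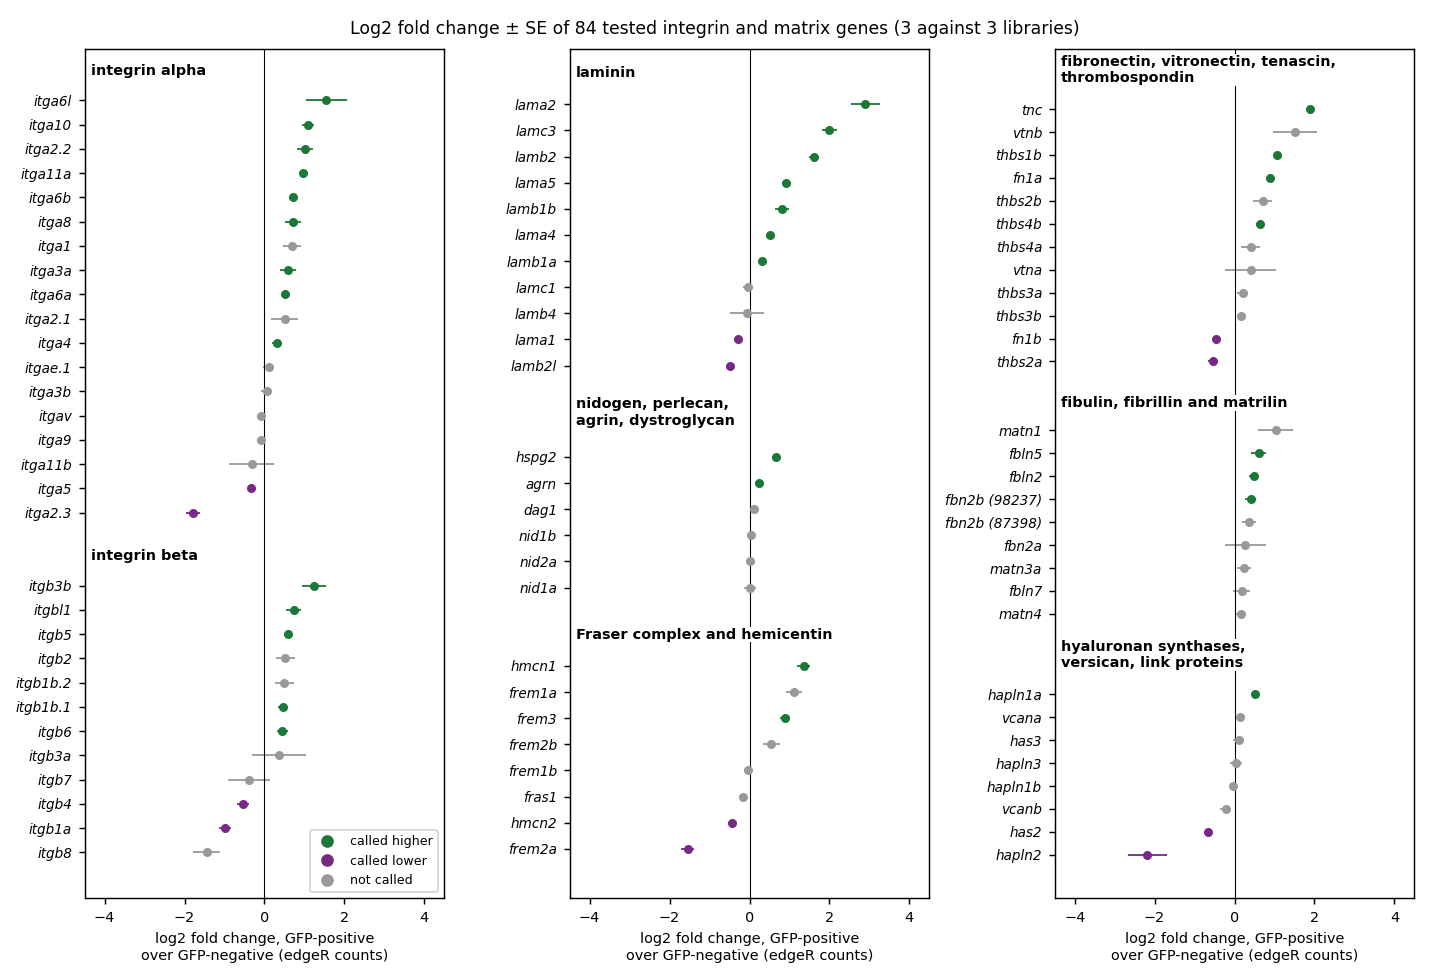
Log2 fold change of GFP-positive over GFP-negative cells (x axis, edgeR on counts, points with bars of ± 1 SE) for 84 of the 85 genes tested, one row a gene, in the groups by role. Green points are 33 genes that rose, purple points the 12 that fell and grey points the 39 not called; the values run from 2.89 for *lama2* to -2.18 for *hapln2*.

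Among the laminin chains, 8 of 12 tested genes (66.7%) rose, 2 (16.7%) fell and 2 were not called, against 24.1% and 25.0% over all genes. The median log2 fold change of the laminin genes was 0.67. The alpha chain genes split. *lama5*, the alpha chain typical of epithelial basement membranes, measured 10.1, 12 and 16.2 TPM in GFP-positive libraries and 7.02, 7.57 and 7.46 TPM in GFP-negative ones. The groups did not overlap, and it rose by 0.91 (SE 0.11, adjusted p = 5.23e-06). *lama1*, the alpha chain of early embryonic basement membranes and of the notochord sheath, measured 8.14, 10.7 and 12.4 TPM in GFP-positive libraries and 14.2, 14.6 and 12.4 TPM in GFP-negative ones. Its replicates 3 met at nearly the same level, its log2 fold change was -0.28 (SE 0.10, adjusted p = 0.0317), and the call was lost without either of GFP-positive replicates 1 and 2 or GFP-negative replicates 1 and 2, with -0.15 as the value without GFP-positive replicate 1. *lama2*, best known as the alpha chain of muscle basement membranes, was scarce but gave the largest change of all 85 genes. It had only 71, 90 and 125 counts in GFP-positive libraries and 18, 10 and 9 in GFP-negative ones. It measured 0.750, 1.18 and 1.49 TPM in GFP-positive libraries against 0.221, 0.146 and 0.118 TPM in GFP-negative ones, a log2 fold change of 2.89 (SE 0.36, adjusted p = 1.06e-05). Without GFP-positive replicate 3 the value was 2.70, with a mean of 0.966 TPM in GFP-positive cells, under the limit for a call. *lama4*, a chain found in vessels and mesenchyme, rose by 0.52 (SE 0.11, adjusted p = 0.00102) although its groups overlapped slightly in TPM, at 6.47, 7.67 and 10.2 against 5.89, 6.56 and 5.93 TPM. Its value was 0.37 without GFP-positive replicate 3, and it did not pass with limma on log2(TPM + 1) (0.34, adjusted p = 0.0971). *lama3*, whose human counterpart encodes the alpha chain of the laminin under hemidesmosomes, was not tested, with at most 8 counts in any library and at most 0.0743 TPM.

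The most abundant laminin gene in both populations was *lamb1a*, the common beta chain. It measured 123, 132 and 172 TPM in GFP-positive libraries and 118, 134 and 124 TPM in GFP-negative ones. These values overlapped, with a log2 fold change of 0.31 (SE 0.08, adjusted p = 0.0032) that was 0.19 without GFP-positive replicate 3 and did not pass on the TPM scale (0.18, adjusted p = 0.227 with limma on log2(TPM + 1)). *lamb2*, the beta chain of neuromuscular and glomerular basement membranes in mammals, had 3.34, 3.56 and 4.78 TPM in GFP-positive libraries and 1.27, 1.37 and 1.51 TPM in GFP-negative ones. It rose by 1.61 (SE 0.13, adjusted p = 1.15e-07). Its relative *lamb2l* went the other way. It had 4.41, 5.68 and 6.72 TPM in GFP-positive libraries and 8.26, 9.65 and 8.30 TPM in GFP-negative ones, a log2 fold change of -0.48 (SE 0.10, adjusted p = 0.000809), and neither gene's groups overlapped. The lesser copy *lamb1b* rose by 0.82 (SE 0.17, adjusted p = 0.00104) at 1.01 to 1.62 against 0.706 to 0.832 TPM, and *lamb4* lay at or below 0.123 TPM in all libraries. A gene outside the symbol rule that the gene name table calls *lamb3*, the beta chain of the hemidesmosomal laminin in mammals, averaged 0.0534 TPM in GFP-positive and 0.0520 TPM in GFP-negative cells and was not tested.

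Of the gamma chains, *lamc1*, the partner in most laminins, was not called. It measured 38.9, 49.4 and 69.2 TPM in GFP-positive libraries against 58.7, 62.4 and 53.6 TPM in GFP-negative ones, and GFP-positive replicate 3 was the only GFP-positive library above any GFP-negative one. Its log2 fold change was -0.04 (SE 0.12, adjusted p = 0.81), and it fell (-0.24, adjusted p = 0.00626) without that library. *lamc3*, a rarer gamma chain, measured 1.70, 2.32 and 2.38 TPM in GFP-positive libraries and 0.501, 0.795 and 0.449 TPM in GFP-negative ones. The groups were separate, and *lamc3* rose by 2 (SE 0.19, adjusted p = 9.25e-07).

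Since TPM is per transcript length, the chains can be set side by side within a library. Summed over genes, alpha chains averaged 32.5 ± 7.5 TPM in GFP-positive and 27.4 ± 1.5 TPM in GFP-negative cells and beta chains 153 ± 28 and 136 ± 8.8 TPM (SD, n = 3 each, GFP-positive first). The totals thus overlapped while the make-up did not. *lama5* made up 39.2% ± 1.1 of alpha chain TPM in GFP-positive and 26.9% ± 1.7 in GFP-negative cells, and *lama1* 32.2% ± 1.5 and 50% ± 2.1. The ratio of *lama5* to *lama1* was 1.24, 1.12 and 1.30 in GFP-positive libraries and 0.495, 0.518 and 0.604 in GFP-negative ones. *lama1* was thus the leading alpha chain gene in each GFP-negative library and *lama5* in each GFP-positive one, replicate 3 included. *lamb1a* made up 93.0% ± 0.31 of beta chain TPM in GFP-positive and 91.9% ± 0.096 in GFP-negative cells. The ratio of *lamb2* to *lamb2l* was 0.759, 0.626 and 0.711 in GFP-positive libraries and 0.154, 0.142 and 0.182 in GFP-negative ones. For each of these shares and ratios the groups did not overlap, and because the genes set against each other were chosen with their calls known, no test of them is given; 3 against 3 libraries could reach no p below 0.1 in a two-sided exact permutation test. Near-identical paralogs can share reads, so that ratios between them are less certain than those between distinct chains.

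**Figure D2:**
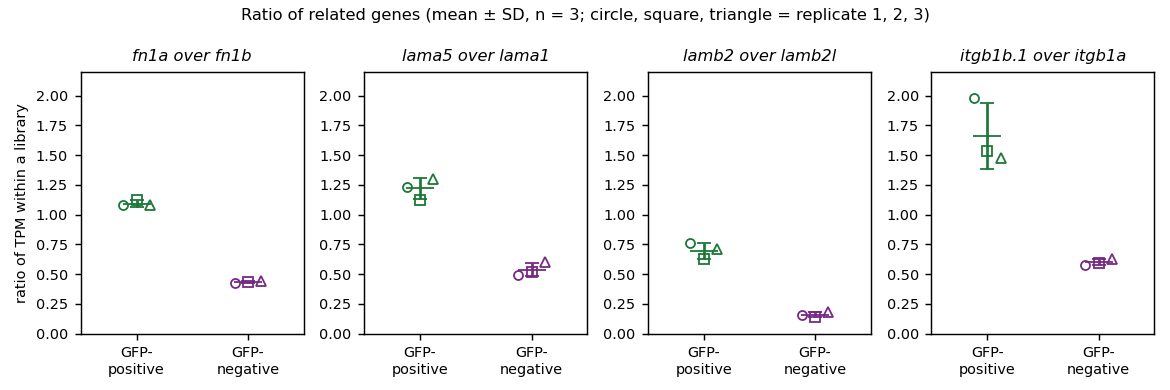
Ratio of TPM of a pair of related genes within each library (y axis, no unit), for 4 pairs, with GFP-positive libraries in green left of GFP-negative ones in purple; symbols are replicates, bars the mean ± SD (n = 3). In each pair the GFP-positive points lie above all GFP-negative points, for *fn1a* over *fn1b* at 1.08 to 1.13 against 0.425 to 0.440. The pairs were chosen with their calls known.

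Among nidogens, perlecan, agrin and dystroglycan, 2 of 6 tested genes (33.3%) rose and 4 were not called, against 24.1% risen over all genes. The median log2 fold change was 0.08, and GFP-positive replicate 3 was the highest GFP-positive library for all 6. *nid2a*, a nidogen that links laminin to collagen, was the most abundant of all 94 genes in both populations and made up 33.7% ± 2.1 of their summed TPM in GFP-positive and 32.3% ± 1.3 in GFP-negative cells. It measured 436, 543 and 720 TPM in GFP-positive libraries and 506, 502 and 487 TPM in GFP-negative ones. GFP-positive libraries lay on both sides of the GFP-negative range, with a log2 fold change of 0.02 (SE 0.07, adjusted p = 0.854) that was -0.08 without GFP-positive replicate 3. The TPM of *nid2a* lay mostly in short listed transcripts. Those of 649, 728 and 814 bases averaged 152, 141 and 126 TPM in GFP-positive and 83.1, 139 and 79.3 TPM in GFP-negative cells. Those of 5033 and 5230 bases averaged 73.5 and 72.3 TPM in GFP-positive and 96.8 and 67.4 TPM in GFP-negative cells. In counts of the GFP-positive libraries *nid2a* was closer to *lamb1a*, at 31268, 28711 and 39375 against 29701, 25580 and 36884. *nid1a* and *nid1b*, of the other nidogen type, gave 0.01 and 0.04 and were not called. *nid2b* was not tested, with 24 counts over the GFP-positive libraries and 0 over the GFP-negative ones. *hspg2*, perlecan, a large heparan sulfate proteoglycan, rose by 0.65 (SE 0.09, adjusted p = 4.43e-05), with 7.49, 9.17 and 11.3 TPM in GFP-positive libraries, all above the 6.39, 6.61 and 6.25 TPM in GFP-negative ones. *agrn*, agrin, another such proteoglycan, was close to the threshold at 0.24 (SE 0.09, adjusted p = 0.0441) with overlapping TPM. That call was lost without GFP-positive replicate 3, where the value was 0.09, and without any of the GFP-negative libraries, and the value was 0.04 on log2(TPM + 1). *dag1*, dystroglycan, the laminin receptor outside the integrin family, measured 130, 144 and 180 TPM in GFP-positive libraries and 154, 174 and 157 TPM in GFP-negative ones and was not called, at 0.12 (SE 0.06, adjusted p = 0.113).

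The total of *nid2a*, which was not called, covered unlike transcripts. Of 235 transcripts of the 94 genes, 147 were tested singly, and 34 rose and 13 fell, where 16.2% and 16.3% of 32736 transcripts tested did. Among 40 genes with at least 2 transcripts tested, *nid2a* was the only one with transcripts called in opposite directions. Transcript ENSDART00000154473 of *nid2a* measured 1.73, 0 and 2.53 TPM in GFP-positive libraries and 32.5, 32.0 and 33.1 TPM in GFP-negative ones, a log2 fold change of -4.40 (SE 0.79, adjusted p = 0.00543). Transcripts ENSDART00000156287 and ENSDART00000155907 of *nid2a* rose by 0.95 (SE 0.18, adjusted p = 0.0069) and 0.75 (SE 0.16, adjusted p = 0.00978), and ENSDART00000155857 by 0.24 (SE 0.07, adjusted p = 0.0348). The first 3 are listed with lengths between 649 and 814 bases, against 5230 bases for ENSDART00000155857 of *nid2a*, and reads that fit several transcripts were divided among them by estimation. Of *dag1*, transcript ENSDART00000126885 rose by 0.53 (SE 0.05, adjusted p = 0.00025), and ENSDART00000004504 was not called at -0.28 (SE 0.15, adjusted p = 0.207). For *nid1b*, ENSDART00000173416 rose by 0.58 (SE 0.05, adjusted p = 0.000311), and ENSDART00000168209 was not called at -0.44 (SE 0.21, adjusted p = 0.153). For *agrn*, ENSDART00000162838 rose by 0.89 (SE 0.10, adjusted p = 0.000638). Its transcripts ENSDART00000114067 and ENSDART00000172214 were not called, at -0.16 and -0.02.

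Of the 12 fibronectin, vitronectin, tenascin and thrombospondin genes, 4 rose, 2 fell and 6 were not called. The fibronectin genes, *fn1a* and *fn1b*, whose products form the fibrils that precede basement membranes and that bind alpha 5 integrin, were called in opposite directions. *fn1a* measured 40, 50.1 and 65.5 TPM in GFP-positive libraries and 28.2, 33.5 and 28.8 TPM in GFP-negative ones. *fn1b* measured 37.1, 44.5 and 60.7 TPM in GFP-positive libraries and 66.5, 77.2 and 65.4 TPM in GFP-negative ones. Neither gene's groups overlapped. *fn1a* rose by 0.90 (SE 0.11, adjusted p = 8.53e-06) and *fn1b* had a log2 fold change of -0.46 (SE 0.11, adjusted p = 0.0028). Their sum did not separate the populations, at 77.0, 94.7 and 126 TPM in GFP-positive libraries against 94.7, 111 and 94.2 TPM in GFP-negative ones. Within a library the ratio of *fn1a* to *fn1b* was 1.08, 1.13 and 1.08 in GFP-positive cells and 0.425, 0.434 and 0.440 in GFP-negative cells. It varied far less between replicates than either level. Each gene was already separate, in opposite directions, so the ratio had to differ between populations and adds no further evidence. Of the *fn1b* transcripts, ENSDART00000103755 fell (log2 fold change -1.23, SE 0.10, adjusted p = 0.000174), with 7.81 TPM in GFP-positive and 20.2 TPM in GFP-negative cells on average, whereas ENSDART00000023692, the more abundant of them, gave -0.17 (SE 0.17, adjusted p = 0.471).

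*tnc*, tenascin C, a matrix protein that modulates adhesion to fibronectin, measured 17.8, 19.3 and 31.4 TPM in GFP-positive libraries and 6.48, 9.46 and 8.12 TPM in GFP-negative ones. Each GFP-positive library was above each GFP-negative one, and *tnc* rose by 1.89 (SE 0.10, adjusted p = 2.09e-09), with the smallest adjusted p of the 85 genes. A further gene, listed by the file as "TNC (1 of many)" and so outside the symbol rule, passed the p threshold at 1.64 (SE 0.22, adjusted p = 2.58e-05) but not the TPM limit, at 0.934 TPM in GFP-positive and 0.331 TPM in GFP-negative cells. Thrombospondins, secreted calcium-binding proteins of the matrix, varied by gene. *thbs4b* measured 52.9, 53.2 and 58.3 TPM in GFP-positive libraries against 36.7, 41.6 and 37.7 TPM in GFP-negative ones and rose by 0.63 (SE 0.06, adjusted p = 3.82e-07). *thbs1b* rose by 1.07 (SE 0.08, adjusted p = 1.13e-07), at 14.9, 14.9 and 16.4 against 7.75, 9.25 and 7.88 TPM. *thbs2a* fell, at 3.71, 4.05 and 5.86 TPM in GFP-positive libraries against 6.62, 8.10 and 6.91 TPM in GFP-negative ones (-0.55, SE 0.12, adjusted p = 0.00167). None of these 3 overlapped between populations. A gene listed as "THBS1 (1 of many)", outside the symbol rule, rose by 1.04 (SE 0.17, adjusted p = 0.000143). *thbs3a*, *thbs3b* and *thbs4a* were not called, at 0.20, 0.17 and 0.40, and *thbs2b* and *vtnb* passed the p threshold but not the TPM limit. *vtna* and *vtnb*, the vitronectin genes, did not exceed 0.515 TPM in any library.

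**Figure D3:**
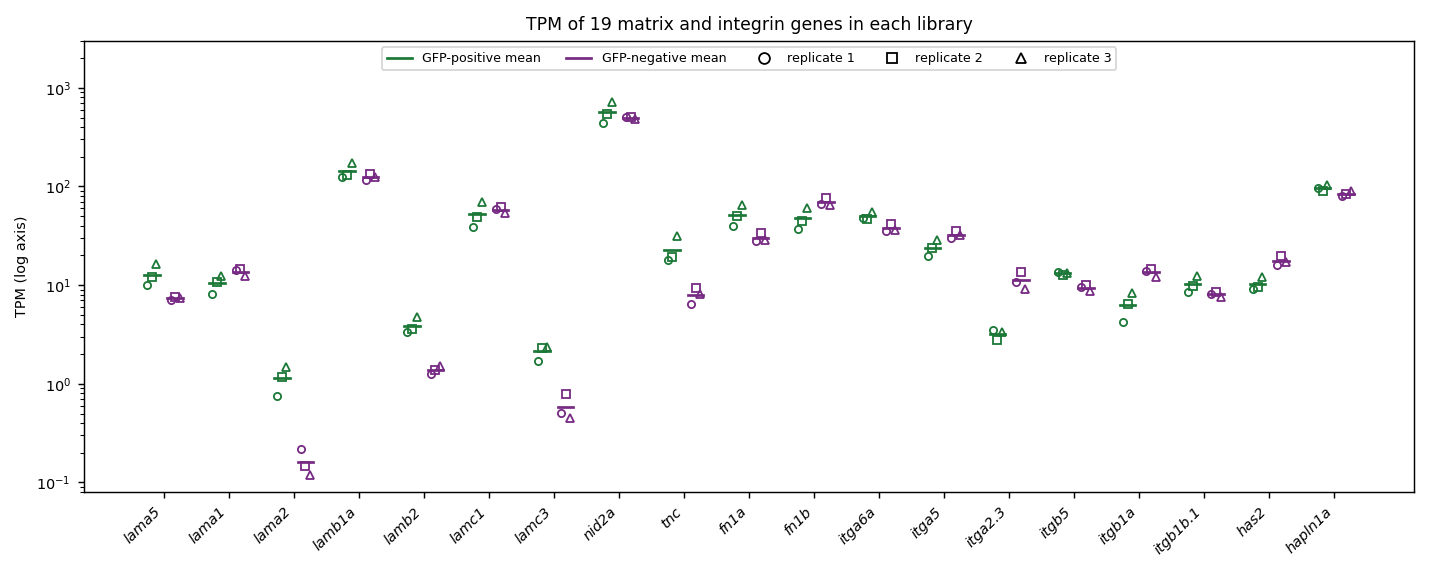
TPM (y axis, log scale) of 19 of the genes in each library, with GFP-positive libraries in green left of GFP-negative ones in purple; symbols are replicates and short lines the means. Points of *tnc*, *lama5*, *lamb2*, *lamc3* and *fn1a* are separate with GFP-positive above, points of *fn1b*, *itga5*, *itga2.3*, *itgb1a* and *has2* separate with GFP-negative above, and *nid2a* overlaps at 436 to 720 against 487 to 506 TPM.

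Among integrin alpha chains, 9 of 18 tested genes (50%) rose, 2 (11.1%) fell and 7 were not called, against 24.1% and 25.0% over all genes. The laminin-binding alpha 6 chains made up the largest share of alpha chain TPM when *itga6a* and *itga6b* were summed. *itga6a*, the most abundant alpha chain gene in both populations, measured 48.4, 46.5 and 54.6 TPM in GFP-positive libraries and 35.7, 41.2 and 36.3 TPM in GFP-negative ones. *itga6b* had 17.5, 20.5 and 19.5 TPM in GFP-positive libraries and 11.9, 14.0 and 13.1 TPM in GFP-negative ones. Both were separate between populations and rose, *itga6a* by 0.52 (SE 0.06, adjusted p = 4.84e-06) and *itga6b* by 0.72 (SE 0.07, adjusted p = 1.18e-06). Another gene of this name, *itga6l*, was near 1 TPM, at 1.47, 0.901 and 1.29 against 0.808, 0.767 and 0.255 TPM, and rose by 1.55 (SE 0.51, adjusted p = 0.0197). Its value was 2.35 without GFP-negative replicate 1, and the call was lost, at 1.15 to 1.39, without GFP-positive replicate 1, GFP-negative replicate 2 or GFP-negative replicate 3. *itga5*, the fibronectin receptor chain, measured 19.8, 23.7 and 28.4 TPM in GFP-positive libraries and 30.3, 35.1 and 32.0 TPM in GFP-negative ones, and its log2 fold change was -0.33 (SE 0.08, adjusted p = 0.00383). Summed alpha chain TPM overlapped, at 144 ± 17 in GFP-positive and 140 ± 12 in GFP-negative cells (SD, n = 3 each). *itga6a* and *itga6b* together made up 48.1% ± 2.4 of it in GFP-positive and 36.1% ± 0.67 in GFP-negative cells, and *itga5* 16.6% ± 1.2 and 23.1% ± 0.70, without overlap. These genes, too, were chosen with their calls known.

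The genes of collagen-binding alpha chains did not move as one. *itga2.3* gave the largest fall among integrins, with 3.51, 2.75 and 3.32 TPM in GFP-positive libraries and 10.8, 13.5 and 9.17 TPM in GFP-negative ones (-1.79, SE 0.17, adjusted p = 7.76e-07). Its relative *itga2.2* rose by 1.02 (SE 0.20, adjusted p = 0.000559), at 1.08, 1.23 and 0.980 TPM in GFP-positive libraries against 0.501, 0.647 and 0.521 TPM in GFP-negative ones, and *itga2.1* was not called at 0.51 (SE 0.34, adjusted p = 0.235). Reads from these 3 like-named copies may have been divided among them by estimation. *itga10* rose by 1.09 (SE 0.16, adjusted p = 4.75e-05) and *itga11a* by 0.97 (SE 0.12, adjusted p = 7.36e-06), both with separate groups at 2.15 to 3.45 against 1.18 to 1.68 TPM and 2.85 to 3.59 against 1.56 to 1.86 TPM. *itga1* passed the p threshold at 0.68 but lay under 1 TPM, and *itga11b* lay at or under 0.145 TPM. *itga3a*, *itga4* and *itga8*, partners of beta 1 chains, rose by 0.59, 0.30 and 0.71, but none of the 3 passed without GFP-positive replicate 3 (adjusted p = 0.0734, 0.0663 and 0.0533), and *itga8* was then at 0.43. The calls of *itga3a* and *itga4* were also lost without GFP-positive replicate 2 or GFP-negative replicate 3, and that of *itga4* without GFP-negative replicate 1. *itgav*, the alpha chain of vitronectin receptors, was not called, with 11.6, 13.0 and 18 TPM in GFP-positive libraries and 16.4, 18.4 and 17.0 TPM in GFP-negative ones. It fell (-0.25, adjusted p = 0.00782) without GFP-positive replicate 3. *itga3b*, *itga9* and *itgae.1* were not called at 0.05, -0.10 and 0.10. *itga2b*, the platelet chain, and the leukocyte chain genes *itgam* and *itgae.2* were not tested, with at most 10 counts in any library.

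Among integrin beta genes, 5 of 12 tested (41.7%) rose, 2 (16.7%) fell and 5 were not called, against 24.1% and 25.0% over all genes. These counts and the beta chain sums below include *itgbl1*, which rose but encodes a secreted protein with integrin beta repeats. *itgb1a* and *itgb1b.1*, copies of the beta 1 chain that pairs with most alpha chains, were called in opposite directions. *itgb1a* measured 4.27, 6.44 and 8.37 TPM in GFP-positive libraries and 14.0, 14.4 and 12.1 TPM in GFP-negative ones, a log2 fold change of -0.98 (SE 0.15, adjusted p = 8.83e-05). *itgb1b.1* measured 8.46, 9.88 and 12.3 TPM in GFP-positive libraries and 8.13, 8.52 and 7.66 TPM in GFP-negative ones and rose by 0.46 (SE 0.11, adjusted p = 0.00233). Its groups overlapped slightly, and it did not pass with limma on log2(TPM + 1) (0.29, adjusted p = 0.102). The ratio of *itgb1b.1* to *itgb1a* was 1.98, 1.53 and 1.47 in GFP-positive libraries and 0.579, 0.591 and 0.631 in GFP-negative ones, without overlap. As the pair was chosen for its opposite calls, this ratio adds no further evidence. A gene that the file lists without an integrin symbol (ENSDARG00000104484) is named ITGB1 in the gene name table and lies outside the symbol rule. It was far more abundant than any beta chain gene the rule found, with 105, 124 and 140 TPM in GFP-positive libraries and 178, 191 and 187 TPM in GFP-negative ones. It fell (-0.49, SE 0.07, adjusted p = 2.94e-05) without overlap. With it, summed beta chain TPM was 170 ± 22 in GFP-positive and 231 ± 6.4 in GFP-negative cells, and without it 46.9 ± 5.0 and 45.1 ± 2.2 (SD, n = 3 each). It made up 72.4% ± 0.81 of the larger sum in GFP-positive and 80.4% ± 1.0 in GFP-negative cells.

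*itgb5*, a beta chain that pairs with alpha v, was the most abundant of the beta chain genes found by symbol in GFP-positive cells, with 13.6, 12.6 and 13.4 TPM there against 9.58, 10.1 and 8.71 TPM in GFP-negative libraries. It rose by 0.58 (SE 0.08, adjusted p = 4.54e-05). *itgb6*, an epithelial partner of alpha v in mammals, rose by 0.45 (SE 0.14, adjusted p = 0.0147) with overlapping TPM, 7.49, 5.94 and 7.42 against 6.51, 4.92 and 3.8, and lost the call without GFP-positive replicate 1 or GFP-negative replicate 3. *itgb3b* rose by 1.23 (SE 0.30, adjusted p = 0.00309) at 0.726, 2.14 and 0.776 TPM in GFP-positive libraries against 0.576, 0.245 and 0.399 TPM in GFP-negative ones. It passed the TPM limit through GFP-positive replicate 2 alone, without which its value was 1.17. *itgbl1*, a secreted protein with integrin beta repeats, rose by 0.73 (SE 0.19, adjusted p = 0.00501). *itgb4*, the partner of alpha 6 in hemidesmosomes, fell. It measured 1.38, 2.44 and 2.41 TPM in GFP-positive libraries and 2.93, 2.74 and 2.87 TPM in GFP-negative ones (-0.55, SE 0.15, adjusted p = 0.00739), and the groups were separate. It did not pass with limma on log2(TPM + 1), where its value was -0.34 (adjusted p = 0.108). No *itgb4* transcript tested singly was called. Those of 8806 and 964 bases gave -0.22 (SE 0.17, adjusted p = 0.387) and -0.03 (SE 0.42, adjusted p = 0.961). The transcript of 6462 bases passed the p threshold at -2.44 (SE 0.73, adjusted p = 0.0384) but not the TPM limit. *itgb8* passed the p threshold at -1.45 but averaged under 1 TPM. *itgb2*, the leukocyte chain, and *itgb7* were not called, and neither exceeded 0.914 TPM. *itgb1b.2* and *itgb3a* were not called either, at 0.50 and 0.37.

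Proteins at the inner side of integrins, and others tied to integrins, were followed in a list of 51 symbols. It held talins, kindlins, parvins, tensins and plectins, but also tetraspanins and collagen XVII chains, and not every listed protein binds an integrin tail directly. The files held 44 of them. Of 42 tested, 24 rose, 4 fell and 14 were not called, where 24.1% of all genes tested rose and 25.0% fell. The list was drawn up with earlier results of these data known, so this count is not an independent test. The median log2 fold change of the list was 0.53, against 0.02 over all genes. The summed level of the listed genes was 1516 to 1743 TPM in GFP-positive libraries and 1238 to 1362 TPM in GFP-negative ones. The 3 largest rises were of tensin genes, whose products tie integrin tails to actin. *tns1a* measured 7.33, 10.3 and 12.9 TPM in GFP-positive libraries against 1.73, 1.39 and 1.82 TPM in GFP-negative ones (2.92, SE 0.15, adjusted p = 8.55e-10). *tns2b* measured 14.5, 16.5 and 19.2 against 2.68, 2.94 and 3.30 TPM (2.70, SE 0.09, adjusted p = 7.26e-12) and *tns3.2* 41.1, 43.4 and 48.4 against 14.6, 17.3 and 16 TPM (2.17, SE 0.10, adjusted p = 6.00e-10). All 3 rose with separate groups. Of the other tensin genes tested, *tns1b* rose by 0.78 (SE 0.10, adjusted p = 1.44e-05) and *tns2a* was not called, at 0.0016 (SE 0.14, adjusted p = 0.993).

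The kindlins and parvins, which sit with integrin-linked kinase at the integrin tail, divided by paralog. *fermt1*, the kindlin of epithelia in mammals, rose by 0.78 (SE 0.07, adjusted p = 7.83e-07), whereas *fermt2*, the broadly expressed kindlin, measured 45, 47.0 and 53.3 TPM in GFP-positive libraries and 85.1, 91.2 and 77.3 TPM in GFP-negative ones (-0.75, SE 0.07, adjusted p = 3.06e-07). *parvb* rose by 1.22 (SE 0.10, adjusted p = 2.12e-07) and *parvab* by 1.63 (SE 0.23, adjusted p = 4.04e-05), whereas *parvaa* measured 10.4, 12.3 and 12.6 TPM in GFP-positive libraries and 32.0, 34.3 and 31.6 TPM in GFP-negative ones (-1.36, SE 0.08, adjusted p = 3.63e-09). Of the focal adhesion kinase genes *ptk2ab* rose by 0.50 (SE 0.06, adjusted p = 1.51e-05), and *ptk2aa* fell at 66.9, 80.4 and 108 TPM in GFP-positive libraries against 117, 135 and 95.0 TPM in GFP-negative ones (-0.36, SE 0.12, adjusted p = 0.0191), with overlap. The fourth fall was *ilk*, integrin-linked kinase, at -0.19. *tln1*, talin, which activates integrins, rose by 0.79 (SE 0.08, adjusted p = 8.53e-07). Of genes tied to alpha 6 beta 4 integrin, the tetraspanin genes *cd151* and *cd151l* both rose by 0.88 and the plectin genes *plecb* and *pleca* by 1.25 and 0.51. The collagen XVII genes *col17a1a* and *col17a1b* were not called, at or under 1.25 TPM in every library.

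The enzymes that build the laminin-binding sugar of dystroglycan showed no common direction. Of 15 tested genes 5 rose, 2 fell and 8 were not called, where 24.1% of all genes tested rose and 25.0% fell. The median log2 fold change of the 15 genes was 0.06. The risen genes with the largest values act in the supply of sugar donors, namely *dpm1* (0.57, SE 0.10), *gmppb* (0.45, SE 0.06) and *dpm3* (0.25, SE 0.08). The falls were *tmem5*, a xylosyltransferase, at -0.72 (SE 0.14) and *pomt2*, which attaches the first mannose, at -0.29 (SE 0.09). *tmem5* measured 4.72, 4.96 and 6.97 TPM in GFP-positive libraries, below the 9.49, 10.5 and 9.52 TPM in GFP-negative ones.

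Of the 8 Fraser complex and hemicentin genes, 2 rose, 2 fell and 4 were not called. The Fraser complex lies under the basement membrane of the developing epidermis and fins and consists of Fras1 and Frem proteins. *frem2a* measured 0.333, 0.450 and 0.545 TPM in GFP-positive libraries and 1.48, 1.52 and 1.21 TPM in GFP-negative ones, and fell without overlap (-1.55, SE 0.16, adjusted p = 1.45e-06). *frem3* rose by 0.89 (SE 0.12, adjusted p = 2.96e-05) on counts, but its TPM overlapped at 8.72, 11 and 7.76 against 5.31, 6.46 and 8.37, and on log2(TPM + 1) the value was 0.40 (adjusted p = 0.0774 with limma). Tested singly, the *frem3* transcript of 9804 bases rose by 0.95 (SE 0.16, adjusted p = 0.00408), at 2.38, 2.55 and 3.66 against 1.36, 1.83 and 1.70 TPM. The transcript of 648 bases was not called (0.40, SE 0.38, adjusted p = 0.464) and overlapped, at 6.33, 8.42 and 4.10 against 3.95, 4.63 and 6.67 TPM. *fras1* and *frem1b* were not called with all libraries, at -0.16 and -0.04. Both fell without GFP-positive replicate 3, with -0.30 and -0.19. *frem1a* and *frem2b* passed the p threshold at 1.1 and 0.55 but averaged under 1 TPM. The hemicentins, giant proteins that join cells to matrix in fins and skin, were called in opposite directions. *hmcn1* rose by 1.35 (SE 0.16, adjusted p = 8.68e-06), with 2.06, 1.1 and 1.85 TPM in GFP-positive libraries against 1.1, 0.530 and 0.563 TPM in GFP-negative ones. Most of this TPM lay in a transcript of 560 bases, not tested singly, at 1.11 against 0.494 TPM on average. The transcript of 18491 bases passed the p threshold at 1.43 (SE 0.21, adjusted p = 0.00224) but not the TPM limit, at 0.537 against 0.220 TPM. *hmcn2* measured 6.04, 5.91 and 7.23 TPM in GFP-positive libraries and 10.8, 12.9 and 9.55 TPM in GFP-negative ones. It fell, with a log2 fold change of -0.43 on counts (SE 0.11, adjusted p = 0.00393) and of -0.71 on log2(TPM + 1). The lowest GFP-positive value of *hmcn1* lay just above the highest GFP-negative one, while summed TPM of *hmcn2* was separate. Of the *hmcn2* transcripts, that of 3205 bases fell (-0.55, SE 0.10, adjusted p = 0.00493). The transcript of 13717 bases was not called (-0.33, SE 0.17, adjusted p = 0.185), at 1.41, 1.94 and 2.57 against 2.78, 2.64 and 2.75 TPM. A gene outside the symbol rule, ENSDARG00000086060, is also called *hmcn2* in the gene name table. It was not called, averaging 2.31 TPM in GFP-positive and 2.24 TPM in GFP-negative cells (0.15, SE 0.23, adjusted p = 0.615).

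Of 9 tested fibulin, fibrillin and matrilin genes, which encode parts of elastic fibres and microfibrils or, for matrilins, adaptors of cartilage-type matrix, 3 rose and 6 were not called. *fbln2* rose by 0.48 (SE 0.12, adjusted p = 0.00309) and *fbln5* by 0.60 (SE 0.19, adjusted p = 0.0158). *fbln2* overlapped in TPM, at 4.21, 4.73 and 6.43 against 4.05, 5.83 and 3.93, and had a value of 0.13 on log2(TPM + 1). *fbln5* was separate at 1.53 to 2.39 against 1.28 to 1.52 TPM, and lost the call without GFP-positive replicate 3. The symbol *fbn2b*, a fibrillin needed in zebrafish for the notochord and fin folds, belongs to 2 identifiers with nearly the same values, so that their reads may have been divided between them. ENSDARG00000098237 measured 15.6, 21.4 and 29.9 TPM in GFP-positive libraries and 18.5, 19.5 and 16.7 TPM in GFP-negative ones. It spanned the GFP-negative range, and its call at 0.40 (SE 0.14, adjusted p = 0.026) was lost without GFP-positive replicate 3, where the value was 0.18, and without GFP-positive replicate 2 or GFP-negative replicate 3. ENSDARG00000087398 was not called at 0.36 (SE 0.17, adjusted p = 0.0871). A gene listed as FBLN1 in capitals, and so outside the symbol rule, was more abundant than the fibulins found by it. It measured 29.7, 32.8 and 36.7 TPM in GFP-positive libraries and 48.2, 45.2 and 43.3 TPM in GFP-negative ones, and fell (-0.36, SE 0.08, adjusted p = 0.00121). *fbn2a*, *fbln7*, *matn1*, *matn3a* and *matn4* were not called, at 0.27, 0.18, 1.03, 0.24 and 0.16, each with overlapping TPM. *fbn1* and *matn3b* were not tested, with at most 16 counts in any library.

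Hyaluronan is a long sugar chain made at the cell surface, which link proteins (Hapln) fasten to proteoglycans such as versican. Of 8 tested genes of this group 1 rose, 2 fell and 5 were not called, and their summed level was 137 ± 11 TPM in GFP-positive and 137 ± 9.7 TPM in GFP-negative cells (SD, n = 3 each). *has2*, the main hyaluronan synthase gene here, measured 9.09, 9.68 and 12 TPM in GFP-positive libraries and 15.9, 19.6 and 17.0 TPM in GFP-negative ones. It fell without overlap (-0.65, SE 0.09, adjusted p = 1.69e-05). *has1* was at 0 in all 6 libraries and *has3* was not called. *hapln1a*, the most abundant gene of the group, measured 96.1, 89.7 and 103 TPM in GFP-positive libraries and 80.8, 83.4 and 89.4 TPM in GFP-negative ones. It rose by 0.52 (SE 0.07, adjusted p = 1.28e-05) on counts and by 0.19 (adjusted p = 0.0418) with limma on log2(TPM + 1), with groups that nearly touched. Its transcripts of 4922 and 4898 bases rose by 0.52 (SE 0.08, adjusted p = 0.00363) and 0.71 (SE 0.09, adjusted p = 0.00149). The transcript of 585 bases was not called at -0.16 (SE 0.20, adjusted p = 0.573). The ratio of *hapln1a* to *has2* was 10.6, 9.27 and 8.63 in GFP-positive libraries and 5.09, 4.25 and 5.26 in GFP-negative ones. Each gene was already separate, in opposite directions, so this ratio had to differ between populations. *hapln2*, a link protein known from brain in mammals, measured 0.219, 0.155 and 0.493 TPM in GFP-positive libraries and 1.81, 1.23 and 1.19 TPM in GFP-negative ones and gave the largest fall of the 85 genes (-2.18, SE 0.49, adjusted p = 0.00182). The file also lists a "HAPLN1 (1 of many)", outside the symbol rule, with 1.01, 2.19 and 2.73 TPM in GFP-positive libraries and 8.77, 8.76 and 10.6 TPM in GFP-negative ones (-2.15, SE 0.23, adjusted p = 2.13e-06). *vcana*, *vcanb*, *hapln1b* and *hapln3* were not called, at 0.14, -0.22, -0.03 and 0.04, and *hapln4* was not tested, with at most 19 counts in any library.

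Summed over all 94 genes, the level was 1388, 1592 and 2022 TPM in GFP-positive libraries and 1505, 1617 and 1510 TPM in GFP-negative ones, so that GFP-positive libraries lay below, within and above the GFP-negative range. The same order of the GFP-positive libraries, with replicate 1 lowest and replicate 3 highest, was found in the sums of laminins (201, 229 and 301 TPM), of the nidogen, perlecan, agrin and dystroglycan group (629, 756 and 993 TPM) and of the fibronectin, vitronectin, tenascin and thrombospondin group (177, 198 and 252 TPM). The GFP-negative sums of these groups stayed within 216 to 239, 720 to 759 and 163 to 192 TPM. Sums of EVL markers in the GFP-positive libraries differed less, at 5597, 5537 and 5774 TPM, and those of the notochord markers were 593, 564 and 673 TPM. Their part in the order of the libraries was not tested.

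**Figure D4:**
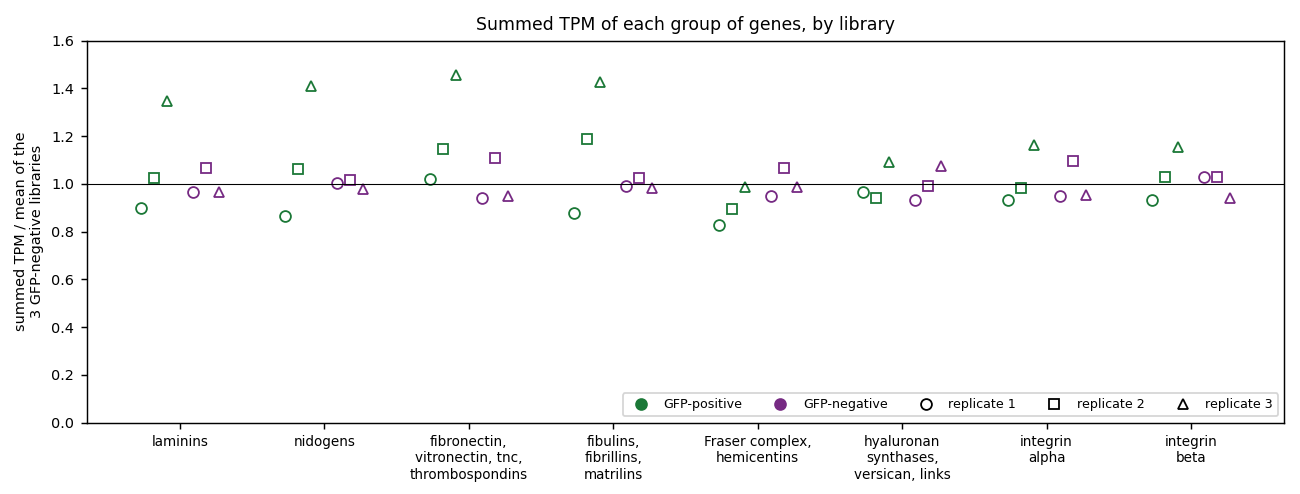
Summed TPM of groups of genes in each library, divided by the mean of the 3 GFP-negative libraries (y axis, no unit), with GFP-positive libraries in green left of GFP-negative ones in purple and symbols for the replicates. The nidogens are plotted alone, without perlecan, agrin and dystroglycan. GFP-positive replicate 3 is the highest GFP-positive point in every plotted group, for laminins at 301 TPM against 201 and 229 TPM in the other GFP-positive libraries.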

How the data were processed

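RNA was measured in 3 GFP-positive and 3 GFP-negative libraries, grouped by GFP status and replicate number as labelled. The authors trimmed reads (Trimmomatic 0.35 and kallisto 0.41 per the submitters' processing notes), quantified 51286 transcripts against zebrafish cDNA (danRer10), and deposited for each transcript an estimated count, not normalized, and a TPM value, scaled by length and library. The annotation release is not given in the sources used here. The p-values, q-values and effects of the authors' deposited sleuth comparison were not used.

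Estimated counts and TPM were summed per gene identifier. The rounded counts went into edgeR 4.0.16 under R 4.3.3 (TMM, default filterByExpr, quasi-likelihood F test, Benjamini-Hochberg adjustment). A call needed an adjusted p below 0.05 and a mean TPM above 1 in the higher population. The standard error is the absolute log2 fold change over the square root of F. Count fold changes and TPM ratios of genes with transcripts of unequal length can differ. Replicates came from separate incrosses. The library preparation does not keep strand, so that overlapping genes cannot be told apart. Library totals of 40584467 to 49679602 set the precision, and a floor of 3 counts covers counting error only. The script was tested on simulated counts.

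Same-numbered libraries did not deviate together (correlations 0.0038, -0.010 and -0.0022), and the main test had no block. The genes and lists were chosen with earlier results of these data known. Full statistics were given for the most abundant gene of each role group in each population, the 8 largest changes in each direction among called genes, paralogs called in opposite directions and the 3 largest changes in each direction in the 2 lists; other genes were named with their group. One gene covered by this rule is not reported here. Alternatives were DESeq2 1.42.0, RLE factors, no TMM, no low-count filter, a replicate block, limma 3.58.1 on log2(TPM + 1) and log2(TPM + 0.1), an adjusted p below 0.01, no TPM limit, single transcripts, the most abundant transcript and each library left out. Replicates 1 and 2 alone, and one length per gene, were added after seeing the data.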

Additional observations from a re-analysis of the deposited data

How the results depend on the processing

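The counts of 34 higher and 12 lower genes were 33 and 12 with DESeq2 and without TMM. They were 34 and 12 with RLE factors, without the low-count filter and with the replicate block. With one length per gene they were 28 and 11, where 4779 and 5052 of all 21180 genes tested were called higher and lower. With replicates 1 and 2 alone they were 25 and 16, where 4864 and 5065 of all 20929 genes tested were. The last 2 settings were chosen after seeing the data. The replicate number as a block changed none of the 46 calls, since all 46 were shared. With limma on log2(TPM + 1) 22 genes rose, and on log2(TPM + 0.1) 20; 10 fell in both. On these scales the median log2 value of all genes was -0.06 and -0.09, against 0.02 on counts, and the share of higher calls among all calls was 38.7% and 38.5%, against 49.1%. With one library left out in turn, 27 to 34 genes rose and 11 to 16 fell. Of 29 genes covered by the naming rule, 20 kept their direction and their side of the threshold in all 15 alternative fits of gene values, which do not include single transcripts. The exceptions were *frem3*, *fbn2b*, *lamb1a*, *itgb4*, *lama2*, *itga6l*, *itgb3b* and *itgb1b.1*, which lost their call in at least 1, and *nid2a*, never called, whose log2 fold change was -0.0841 without GFP-positive replicate 3 (-0.0841 to 0.0989 with one library left out) and -0.0919 with replicates 1 and 2 alone. The 5 higher genes of the dystroglycan glycosylation list became 2 at an adjusted p below 0.01 and 2 on either TPM scale, and 3 to 6 with one library left out; the 2 lower genes became 1 at an adjusted p below 0.01 and 1 to 2 with one library left out. Counting only the most abundant transcript of each gene, the summed TPM of GFP-positive and then GFP-negative cells was 127 and 121 for integrin alpha, 32.8 and 34.1 for integrin beta, 275 and 293 for the nidogen group, 23.2 and 25.3 for the Fraser complex and hemicentins, 167 and 131 for the fibronectin group, 85.5 and 85.2 for the hyaluronan group, 60.1 and 50.3 for the fibulin group and 239 and 218 for laminins. The 9 genes not tested had at most 19 counts in any library and were left out of the main fit by the filter on low counts, so that no statement is made on differences in them.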
